A study of Mus musculus with 4 samples.

Results

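The genes described here were Nr3c1, which encodes the glucocorticoid receptor, Nr3c2, which encodes the mineralocorticoid receptor, the enzyme gene Hsd11b1, and the glucocorticoid-induced genes Fkbp5, Zbtb16, Tsc22d3 and Klf9, 7 of the 32285 genes counted. The list was chosen by a measured value, because Fkbp5 was far higher in adipocyte nuclei after surgery than after sham surgery, and the other 6 genes were added for their place in the same pathway. The surgery against sham values in adipocyte nuclei are therefore given as a description. All groups shared a high-fat diet given to the mice, and each group had 1 library. The groups were brown adipose tissue (BAT) after bariatric surgery, BAT after sham surgery, beige adipose tissue (BeAT) after bariatric surgery and BeAT after sham surgery, as labelled. The type of operation, the time after it, and the strain, sex, age and number of the mice were not given in the sources used here. With 1 library per group, surgery cannot be told apart from any other difference between the libraries, no test was made, and each interval below covers counting error only. A fit of surgery and label over the 4 libraries would leave 1 degree of freedom and was not run.

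Glucocorticoids enter the cell and bind the receptor, which is held in the cytosol by heat shock chaperones. The hormone-bound receptor moves to the nucleus, binds DNA and raises or lowers transcription of its target genes. In fat, glucocorticoids are known to act on adipocyte differentiation, lipid turnover and insulin response, and the enzyme encoded by Hsd11b1 regenerates active hormone inside the cell.

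The deposited tables held 9946 barcodes and 60409801 UMIs in BAT surgery, 10445 barcodes and 47525684 UMIs in BAT sham, 5952 barcodes and 23118695 UMIs in BeAT surgery, and 10417 barcodes and 35675477 UMIs in BeAT sham, a UMI being a counted RNA molecule. Nuclei were grouped into classes by marker genes and are called adipocyte-like and so on, and levels are in CPM, the UMIs of a gene scaled to a total of 1000000 UMIs for the class in that library. Adipocyte-like nuclei numbered 568 in BAT surgery, 4081 in BAT sham, 489 in BeAT surgery and 4823 in BeAT sham, and all 11 adipocyte markers had UMIs in each library. Ucp1, the defining gene of brown and beige adipocytes, had 0 UMIs in adipocyte-like nuclei of BAT surgery, 2 in BAT sham, 0 in BeAT surgery and 3 in BeAT sham, so that the tissue labels were not borne out by this marker. The BAT surgery library held 5685 epithelial-like nuclei among 9159 kept, marked by the epididymal genes Gpx5 and Defb25. The BeAT surgery library held 1699 B cell-like (31.9%) and 1573 T or NK-like nuclei (29.5%) among 5328 kept. In BeAT sham these were 46 (0.471%) and 188 (1.93%) of 9760. Of the adipocyte-like nuclei of BAT surgery, 91.5% lay in a cluster made almost entirely of that library, while the other 3 libraries shared 2 adipocyte-like clusters.

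In the GENCODE M21 annotation of GRCm38, Fkbp5 (ENSMUSG00000024222) spans chr17:28399094-28517527 and Zbtb16 (ENSMUSG00000066687) chr9:48654297-48836222, both on the minus strand. Tsc22d3 (ENSMUSG00000031431) spans chrX:140539528-140600659 on the minus strand and Klf9 (ENSMUSG00000033863) chr19:23141226-23168134 on the plus strand. Hsd11b1 (ENSMUSG00000016194) spans chr1:193221634-193264075 on the minus strand and Nr3c2 (ENSMUSG00000031618) chr8:76899442-77245012 on the plus strand. The other gene of the list, Nr3c1, has the ID ENSMUSG00000024431.

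The receptor binds a 15-base element made of AGAACA, 3 bases of any kind and TGTTCT, and this element and either 6-base arm of it alone were searched on both strands in RefSeq promoter windows of GRCm38.p6 that run from 250 bases before to 50 bases after a gene's start. The table gave 7 windows for 5 of the genes, 3 of them for Tsc22d3 and 1 each for Fkbp5, Klf9, Nr3c2 and Hsd11b1. The full element was in 0 of these 7 windows and in 3 of all 32851 windows (0.00913%). An arm was in 1 of the 7 windows, the Tsc22d3 window at chrX:140600473-140600772, and in 6233 of all windows (19.0%), counting any window with at least 1. Absence says only that these letters are not in the window. The windows of Fkbp5 (chr17:28486100-28486399), Tsc22d3 and Klf9 (chr19:23140976-23141275) are printed because they belong to the 3 target genes that matched, whose surgery against sham ratios below ran from over 12-fold to near 1. Each is written 5′ to 3′ on the gene's own strand, and the capitals mark the arm.
Fkbp5: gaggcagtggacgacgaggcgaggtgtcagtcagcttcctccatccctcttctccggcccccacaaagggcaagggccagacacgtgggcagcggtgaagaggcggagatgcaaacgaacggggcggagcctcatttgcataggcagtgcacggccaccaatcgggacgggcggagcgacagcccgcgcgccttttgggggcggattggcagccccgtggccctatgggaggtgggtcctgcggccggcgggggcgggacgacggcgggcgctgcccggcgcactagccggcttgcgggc
Tsc22d3: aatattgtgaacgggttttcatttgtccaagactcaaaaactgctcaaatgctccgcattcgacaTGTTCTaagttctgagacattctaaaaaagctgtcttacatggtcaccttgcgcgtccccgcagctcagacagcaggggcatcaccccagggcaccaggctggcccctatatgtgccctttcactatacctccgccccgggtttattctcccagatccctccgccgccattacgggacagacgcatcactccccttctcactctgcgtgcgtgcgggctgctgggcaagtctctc
Klf9: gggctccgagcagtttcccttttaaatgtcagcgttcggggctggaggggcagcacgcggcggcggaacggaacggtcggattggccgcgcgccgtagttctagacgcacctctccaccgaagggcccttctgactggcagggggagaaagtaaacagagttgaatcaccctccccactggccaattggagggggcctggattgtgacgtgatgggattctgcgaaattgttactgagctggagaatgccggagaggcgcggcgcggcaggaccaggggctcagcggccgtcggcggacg
The arm of the Tsc22d3 window started at its base 66, and the GC content was 70.7% in the Fkbp5 window, 54.3% in the Tsc22d3 window and 63.3% in the Klf9 window.

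In adipocyte-like nuclei the receptors and the enzyme stayed within 2-fold between surgery and sham, while 2 of the 4 target genes, Fkbp5 and Zbtb16, were more than 5-fold higher after surgery under both labels. Nr3c1 was read at 654 CPM in BAT surgery and 806 in BAT sham, a ratio of 0.811 (95% interval 0.777 to 0.846). Under the beige label it was read at 752 in BeAT surgery and 703 in BeAT sham, a ratio of 1.07 (1.03 to 1.11). These directions did not hold under every alternative. In the brown-labelled pair the ratio of Nr3c1 was 1.10 (1.05 to 1.15) with the RNA expected from epithelial-like nuclei, described below, taken off. That leak was the largest estimate, set by Defb25, and was removed from the class total as well as from the gene. Taken off the gene alone, it left Nr3c1 at 621 CPM in BAT surgery and 806 in BAT sham, still lower after surgery. Against the BAT sham library the beige-labelled ratio was 0.933 (0.899 to 0.969). Nr3c2, whose receptor also binds glucocorticoids, was at 294 CPM in both BAT surgery and BAT sham, a ratio of 1.003 (0.939 to 1.07), and at 371 in BeAT surgery against 263 in BeAT sham, a ratio of 1.41 (1.33 to 1.49). Longer genes were relatively higher after surgery (Spearman's rho between gene span and ratio, over genes that are not independent, 0.340 in the brown-labelled and 0.572 in the beige-labelled pair), and with this trend taken off the beige-labelled ratio of Nr3c2, a gene of 346 kb, was 1.01. The beige-labelled ratio of Nr3c1 became 0.857 (0.825 to 0.891) with the trend off, while those of Fkbp5, Zbtb16 and Tsc22d3 stayed above 1, at 24.2, 4.57 and 1.74 in the brown-labelled and 10.1, 4.01 and 1.49 in the beige-labelled pair. Hsd11b1 was at 75.1 in BAT surgery against 88.5 in BAT sham (ratio 0.849, 0.745 to 0.963) and at 108 in BeAT surgery against 123 in BeAT sham (0.875, 0.791 to 0.967). The sham libraries differed from each other by more, with a BAT over BeAT ratio of 0.717. With the largest leak taken off the gene and the class total in the brown-labelled pair, the ratio of Hsd11b1 was 1.21 (1.06 to 1.37). The leak of the gene itself was 0.327 CPM, and without it 74.8 in BAT surgery stood against 88.5 in BAT sham. The turn thus came from the class total. The direction of Hsd11b1 also turned in the beige-labelled pair against the BAT sham library, at 1.22 (1.10 to 1.35). Within the cluster led by Npr3 and Tshr, which held 392 of the 489 adipocyte-like nuclei of BeAT surgery, the beige-labelled ratio was 1.31 (1.15 to 1.49). No direction is therefore read for the enzyme gene in adipocyte-like nuclei.

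Fkbp5 encodes an immunophilin that binds the receptor complex, lowers its hormone affinity and is itself induced by the receptor, a short negative feedback loop. Its level was 1295 CPM (4671 UMIs) in BAT surgery and 47.0 (1187 UMIs) in BAT sham, a ratio of 27.6 (25.8 to 29.4). Under the beige label it was 446 (1913 UMIs) in BeAT surgery and 35.3 (723 UMIs) in BeAT sham, a ratio of 12.6 (11.6 to 13.8). Both surgery libraries lay above both sham libraries, and the surgery libraries differed from each other by 2.90-fold (BAT over BeAT, 2.75 to 3.06). The ratio of Fkbp5 ranked 45th of 13041 genes in the brown-labelled pair and 12th of 12495 in the beige-labelled pair. Free RNA of the epithelial-like nuclei could give up to 283 of the 1295 CPM in BAT surgery, from the share of their markers Gpx5 (12.0%) and Defb25 (29.9%) that was found in adipocyte-like nuclei. With that RNA taken off both the gene and the class total, the brown-labelled ratio of Fkbp5 was 30.7. Taken off the gene alone, it left 1012 CPM in BAT surgery against 47.0 in BAT sham. Of the 7 epithelial markers, 6 had UMIs in adipocyte-like nuclei of BAT surgery (summed level 21.4 CPM, Krt5 at 0) against 6 in BAT sham (0.9504, Cdh1 at 0).

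Zbtb16, which encodes the zinc finger transcription factor PLZF, was at 2110 CPM in BAT surgery and 411 in BAT sham, a ratio of 5.14 (4.99 to 5.30), and at 1624 in BeAT surgery and 315 in BeAT sham, a ratio of 5.16 (4.99 to 5.34). The ratios of Zbtb16 were close under both labels, but with leaked RNA taken off the brown-labelled one was 7.27 and the beige-labelled one 5.22. Taken off the gene and not the class total, the leak left 2094 CPM in BAT surgery and 411 in BAT sham. Tsc22d3, which encodes the anti-inflammatory leucine zipper protein GILZ, was at 735 in BAT surgery and 368 in BAT sham, a ratio of 1.998 (1.91 to 2.09), and at 603 in BeAT surgery and 341 in BeAT sham, a ratio of 1.77 (1.69 to 1.85). The brown-labelled ratio of Tsc22d3 fell just short of the 2-fold used here as the limit, and it was 2.81 with the epithelial RNA taken off and 2.16 against the BeAT sham library. Klf9, which encodes a Krüppel-like factor known as a direct receptor target, was at 103 in BAT surgery and 129 in BAT sham (ratio 0.795, 0.712 to 0.885) and at 150 in BeAT surgery and 139 in BeAT sham (1.08, 0.987 to 1.17). Among the 4 target genes, Klf9 alone was not higher after surgery in the brown-labelled pair.

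**Figure D1:**
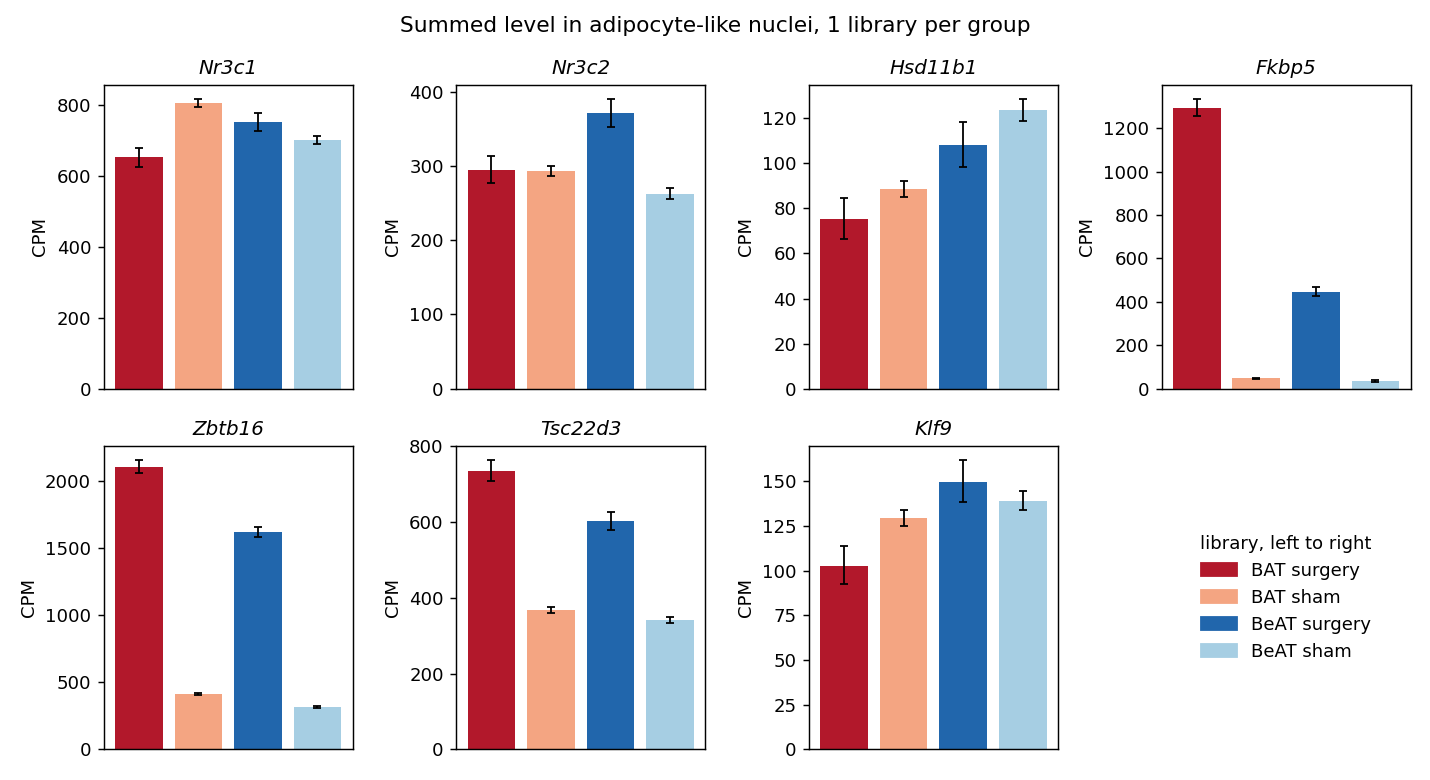
Each panel shows the level of a gene in adipocyte-like nuclei as CPM in the 4 libraries, with the exact Poisson 95% interval of the count as the error bar and 1 library per bar. Both surgery bars stand above both sham bars for Fkbp5, Zbtb16 and Tsc22d3, and not for Nr3c1, Hsd11b1 and Klf9.

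Genes with 50 or more UMIs over the pair were read, and those called past 2-fold had a ratio of that size or more with a counting interval that excluded 1. In the brown-labelled pair 2 of 7 genes were higher by this rule, beside 5.34% of all 13041 genes read, and 0 of 7 were lower, beside 12%. In the beige-labelled pair 2 of 7 were higher, beside 4.4% of 12495 genes, and 0 of 7 were lower, beside 15.2%. Since the list was chosen on this contrast, nothing is read from these counts. Counting both directions, 697 genes were higher and 1561 lower in the brown-labelled pair, and 550 higher and 1900 lower in the beige-labelled pair, which with the span trend taken off became 679 higher and 793 lower.

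Libraries of the same operation share the surgery label but differ in tissue label, and those after surgery also differ in their makeup of nuclei. With 1 pair of libraries per operation, the spread between libraries is not measured. Between BAT surgery and BeAT surgery 1 of the 7 genes, Fkbp5, was at least 2-fold higher, beside 4.53% of genes, and 0 were at least 2-fold lower, beside 3.55%. Between BAT sham and BeAT sham 0 of the 7 were higher, beside 1.77%, and 0 were lower, beside 1.08%. The ratios furthest from 1 between the sham libraries, BAT over BeAT, were 0.717 for Hsd11b1, 1.33 for Fkbp5 and 1.30 for Zbtb16. For Fkbp5 and Zbtb16 these were smaller than the surgery against sham ratios, while for Nr3c1 the sham libraries differed by 1.15-fold and for Nr3c2 by 1.12-fold.

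The higher sums of Fkbp5 and Zbtb16 were not confined to a few adipocyte-like nuclei. At equal depth most nuclei of the surgery libraries had a UMI of each gene, except for Fkbp5 in BeAT surgery. After each nucleus was thinned to 1000 UMIs, 65.9% of adipocyte-like nuclei in BAT surgery had a Fkbp5 UMI, against 4.18% in BAT sham. In BeAT surgery the share was 35.5%, against 3.25% in BeAT sham. Unthinned shares were 90.1% in BAT surgery, 20.9% in BAT sham, 85.3% in BeAT surgery and 12.4% in BeAT sham, at median depths of 6321, 5867, 8813 and 4136 UMIs in that order. No class was fixed as lacking Fkbp5, and the class with the lowest thinned share in BAT surgery, plasma cell-like nuclei, had 8.45% (14.4% unthinned, median depth 1514 UMIs), while B cell-like nuclei of BeAT surgery had 10.4% (18.7% unthinned, 2019 UMIs). The sham adipocyte-like shares lay close to those of endothelial-like nuclei, which were 3.44% in BAT sham and 3.08% in BeAT sham. Thinning left out 35 adipocyte-like nuclei of BAT surgery, 111 of BAT sham, 13 of BeAT surgery and 203 of BeAT sham. For Zbtb16 the thinned share was 78.8% in BAT surgery against 27.7% in BAT sham, and 72.3% in BeAT surgery against 22.9% in BeAT sham. The 10% of adipocyte-like nuclei richest in Fkbp5 held 37.8% of its UMIs in BAT surgery against 62.7% in BAT sham, and 31.9% in BeAT surgery against 84.2% in BeAT sham. The sham values are set largely by sparse counts, since only 20.9% of BAT sham and 12.4% of BeAT sham nuclei had any Fkbp5 UMI. No difference in evenness between surgery and sham is read from them.

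**Figure D2:**
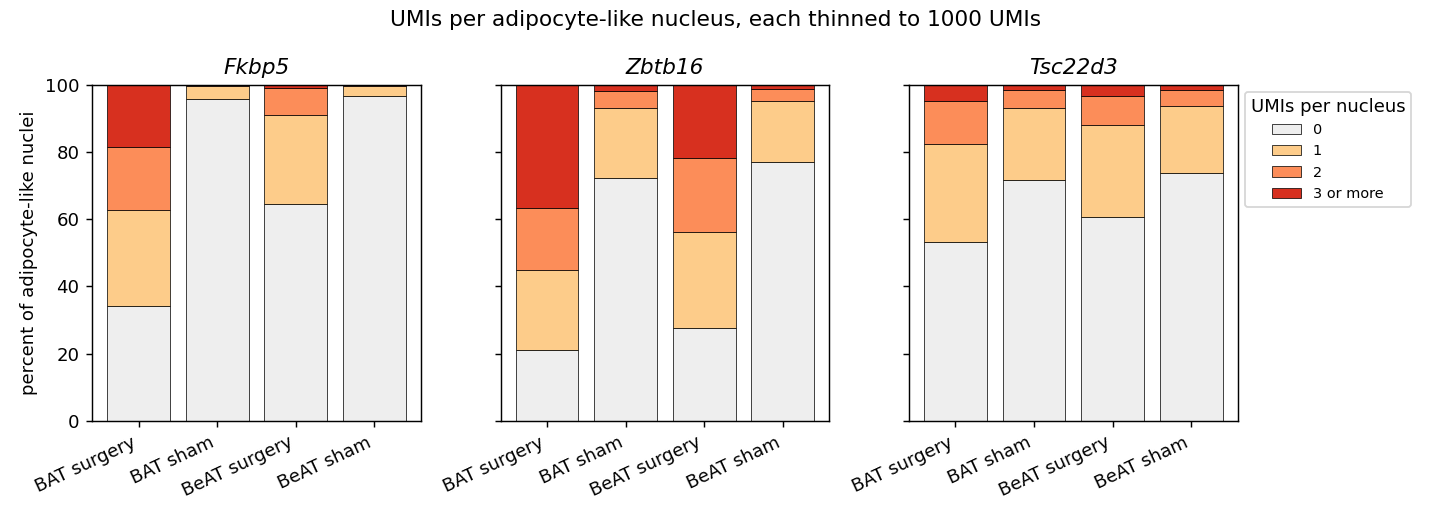
Stacked bars give the percent of adipocyte-like nuclei with 0, 1, 2 or at least 3 UMIs of Fkbp5, Zbtb16 and Tsc22d3 after each nucleus was thinned to 1000 UMIs, by library. Nuclei with at least 3 Fkbp5 UMIs made up 18.4% in BAT surgery, 0.0252% in BAT sham, 1.05% in BeAT surgery and 0.0216% in BeAT sham.

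The higher level of Fkbp5 was found in each adipocyte-like cluster that surgery and sham libraries shared. In the cluster led by Nnat and Adrb3, Fkbp5 was at 1309 CPM in the 27 nuclei of BAT surgery and 41.1 in the 2259 nuclei of BAT sham, and at 503 in the 94 nuclei of BeAT surgery and 33.9 in the 3750 nuclei of BeAT sham. In the cluster led by Npr3 and Tshr, it was at 1111 in the 21 nuclei of BAT surgery and 51.5 in the 1821 nuclei of BAT sham, and at 442 in the 392 nuclei of BeAT surgery and 38.5 in the 1072 nuclei of BeAT sham. Within each cluster the order of the 4 libraries was the same. Zbtb16 within these clusters was 5.69-fold and 4.23-fold higher in BAT surgery than in BAT sham, and 6.92-fold and 3.77-fold higher in BeAT surgery than in BeAT sham.

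As counted, Fkbp5 was also higher in the surgery library outside adipocytes, in each of the 5 other classes compared under each label. It was at least 2-fold higher in 4 of 5 under each. Under the brown label, the expected leak exceeded the level of BAT surgery in endothelial-like, macrophage-like and T or NK-like nuclei. The epithelial-like nuclei there were largely of different clusters, so that only progenitor-like nuclei were left to read under that label. With the largest expected leak taken off the gene alone, these held 382 CPM in BAT surgery and 328 in BAT sham. In the beige-labelled pair, macrophage-like nuclei had 328 CPM in BeAT surgery (279 UMIs) and 45.2 in BeAT sham (86 UMIs), a ratio of 7.26 (5.68 to 9.35) that was 4.71 against BAT sham. Within the macrophage-like cluster led by F13a1 and Cd163 the levels were 714 in BeAT surgery and 55.8 in BeAT sham, and within the cluster led by Saa3 they were 134 in BeAT surgery and 28.4 in BeAT sham. Endothelial-like nuclei had 358 in BeAT surgery and 61.6 in BeAT sham, a ratio of 5.80 (4.06 to 8.43). Progenitor-like nuclei, named by markers of the fibroblast-like cells that give rise to adipocytes, had 702 in BeAT surgery and 255 in BeAT sham, a ratio of 2.76 (2.46 to 3.09). Fkbp5 was thus already higher in sham progenitor-like nuclei than in sham adipocyte-like nuclei, and its ratio there was smaller. T or NK-like nuclei had 301 in BeAT surgery and 153 in BeAT sham (1.97, 1.47 to 2.70), and dendritic-like nuclei had 106 in BeAT surgery and 33.7 in BeAT sham (3.14, 1.41 to 8.68), the sham value resting on 6 UMIs. These classes made up 29.5% and 6.76% of BeAT surgery but 1.93% and 0.666% of BeAT sham, so their makeup need not match. The expected leak of adipocyte and lymphocyte RNA into these classes of BeAT surgery was 39.7 CPM in macrophage-like, 128 in endothelial-like, 80.4 in progenitor-like, 36.1 in T or NK-like and 34.7 in dendritic-like nuclei, below the level in each.

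In the brown-labelled pair the same classes could not be read as freely. Epithelial-like nuclei of BAT surgery held Fkbp5 at 948 CPM (37235 UMIs in 5685 nuclei), against 19.4 in BAT sham (5 UMIs in 58 nuclei). Of the 58 nuclei of BAT sham, 56 lay in a cluster led by Ptn and Ttc6 that held 0 nuclei of BAT surgery. Gpx5 had 0 UMIs in the epithelial-like nuclei of BAT sham and 188826 in those of BAT surgery. The 2 sets were thus different epithelia by cluster and marker, and these values do not compare surgery and sham within 1 cell type. Fkbp5 was at 304 in BAT surgery and 69.5 in BAT sham in macrophage-like nuclei (ratio 4.37, or 6.72 against BeAT sham), at 215 in BAT surgery and 53.6 in BAT sham in endothelial-like nuclei (4.01, or 8.36 after thinning), and at 241 in BAT surgery and 160 in BAT sham in T or NK-like nuclei (1.51). The leak expected in BAT surgery was 424, 638 and 588 CPM in these 3 classes, above the level itself in each. Leak cannot exceed the level, so this largest estimate was too high there. Progenitor-like nuclei had 825 in BAT surgery and 344 in BAT sham (2.40, 2.25 to 2.55), with an expected leak of 443 in BAT surgery and 15.6 in BAT sham. Taken off the gene alone, this largest estimate left 382 in BAT surgery and 328 in BAT sham, so the size of the difference is uncertain. Within the progenitor-like cluster led by C7 and Wt1, which held 94.5% of these nuclei in BAT surgery, the ratio was 1.88 (1.68 to 2.10). With doublets kept, the cluster led by C7, Col6a5 and Wt1 scored best as mesothelial and stayed unnamed, so its name as progenitor-like is uncertain.

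**Figure D3:**
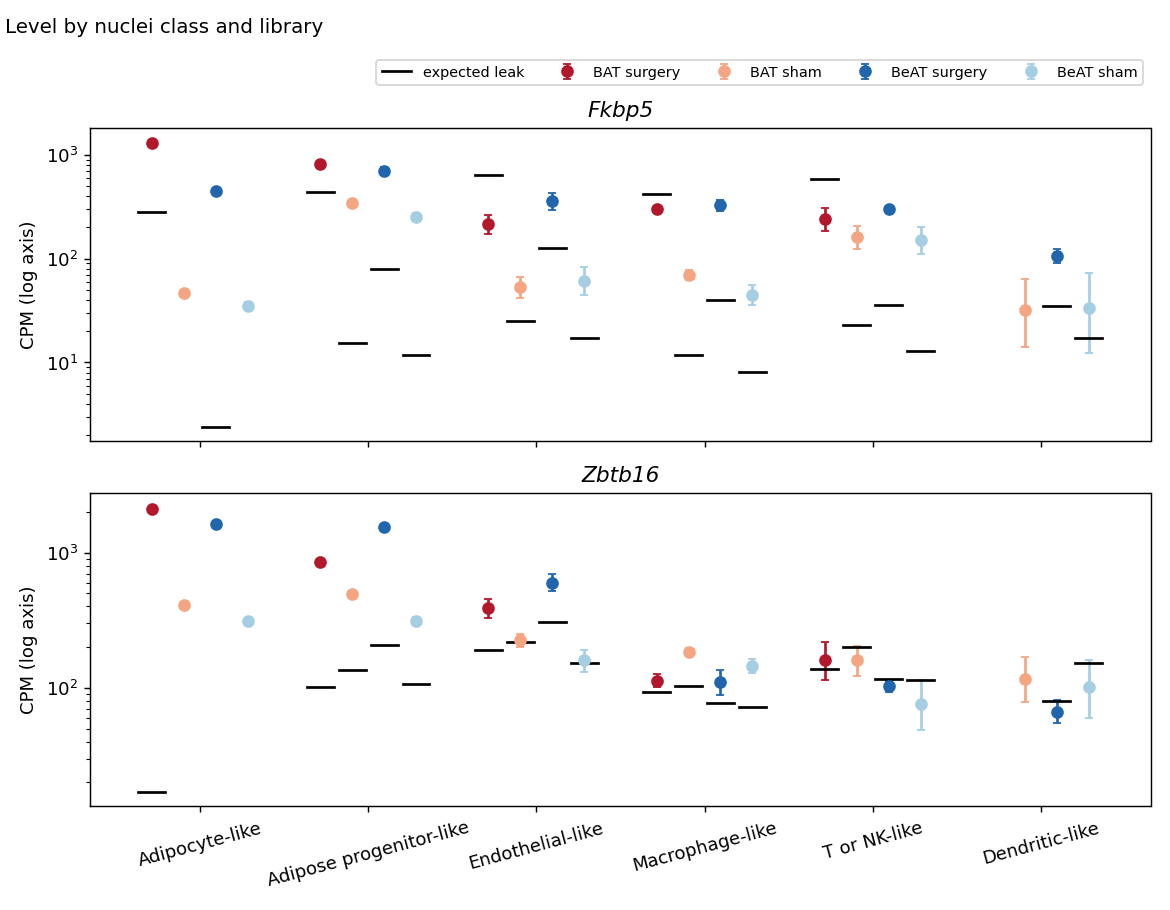
Points give the level of Fkbp5 (upper panel) and Zbtb16 (lower panel) in CPM on a log axis by class and library, with the exact Poisson 95% interval, and black lines the largest level that free RNA of other classes was expected to give. The points of BAT surgery lie below their lines for Fkbp5 in endothelial-like, macrophage-like and T or NK-like nuclei, while the Fkbp5 points of BeAT surgery lie above theirs in every class shown.

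Zbtb16 had ratios on both sides of 1 among the classes. In progenitor-like nuclei it was at 854 CPM in BAT surgery and 498 in BAT sham, a ratio of 1.71 (1.62 to 1.81), and at 1539 in BeAT surgery and 312 in BeAT sham, a ratio of 4.93 (4.52 to 5.39). Against the sham library of the other label these ratios were 2.74 and 3.09. In endothelial-like nuclei the ratio was 1.73 (1.42 to 2.10) in the brown-labelled pair, with a leak of 190 expected of the 388 CPM in BAT surgery and 219 of the 224 in BAT sham. With doublets kept it was 0.916 (0.656 to 1.26), but under that setting the larger endothelial cluster (1108 nuclei) stayed unnamed. Only the cluster led by Cytl1 and Selp (442 nuclei) was then compared, under both labels. The beige-labelled ratio was 3.77 (2.97 to 4.80), or 2.35 with doublets kept, with 305 expected of the 601 CPM in BeAT surgery and 153 of the 160 in BeAT sham. The sham levels of Zbtb16 in endothelial-like nuclei were thus no higher than leaked RNA could give, within their counting error. In macrophage-like nuclei Zbtb16 was at 113 in BAT surgery and 184 in BAT sham (0.616, 0.542 to 0.700) and at 110 in BeAT surgery and 146 in BeAT sham (0.759, 0.594 to 0.962). Leaked RNA was expected to give 93.6 of the 113 in BAT surgery and 104 of the 184 in BAT sham, and 77.9 of the 110 in BeAT surgery and 72.2 of the 146 in BeAT sham. The beige-labelled direction turned with doublets kept, at 1.23 (1.04 to 1.46), and within the cluster led by F13a1 and Cd163, at 1.38 (1.03 to 1.83). Among T or NK-like nuclei, the cluster led by natural killer receptor genes such as Ncr1 and Klra7 had 44 Zbtb16 UMIs in 31 nuclei of BeAT surgery and 4 UMIs in 50 nuclei of BeAT sham, a ratio of 14.6 with a wide interval (5.30 to 55.8). In the brown-labelled pair the same cluster had 0 Zbtb16 UMIs in 27 nuclei of BAT surgery and 7 in 71 nuclei of BAT sham. PLZF is known as a factor of innate-like lymphocytes.

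As counted over the whole class, Hsd11b1 was lower after surgery in progenitor-like nuclei under both labels. In progenitor-like nuclei Hsd11b1 was at 48.7 CPM in BAT surgery and 125 in BAT sham, a ratio of 0.388 (0.313 to 0.477), and at 47.7 in BeAT surgery and 159 in BeAT sham, a ratio of 0.300 (0.204 to 0.428) that was 0.554 with doublets kept. The level in BeAT surgery was within its expected leak of 53.4 CPM. The mix of clusters in this class also differed. The C7 and Wt1 cluster held 531 nuclei of BAT surgery and 227 of BAT sham, and the cluster led by Smoc2 and Lum 2 and 732. How much of the class ratio came from this mix was not tested. The ratio differed between the clusters, and within the C7 and Wt1 cluster it was 0.594 (0.432 to 0.819) in the brown-labelled and 1.01 (0.436 to 2.20) in the beige-labelled pair. In the cluster led by Smoc2 and Lum, Hsd11b1 was at 92.0 in BeAT surgery and 209 in BeAT sham (0.440, 0.254 to 0.714). In macrophage-like nuclei Hsd11b1 had ratios of 0.167 in the brown-labelled pair, or 0.314 after thinning, and 0.407 in the beige-labelled pair, where 4 alternatives gave 0.527 to 0.602. Its sham levels of 21.1 in BAT sham and 28.9 in BeAT sham were no more than about the 22.3 and 28.3 expected from adipocyte RNA. Hsd11b1 was highest of all classes in T or NK-like nuclei, at 278 in BAT surgery, 449 in BAT sham, 546 in BeAT surgery and 386 in BeAT sham.

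Nr3c1 was within 2-fold in every class of both pairs, with ratios of 0.673 to 0.995 in the brown-labelled and 0.806 to 1.07 in the beige-labelled pair. Within the Nnat cluster of adipocyte-like nuclei it was 0.491 (0.286 to 0.787) in the brown-labelled pair, from 27 nuclei of BAT surgery. Its level was lowest in epithelial-like nuclei, at 108 in BAT surgery and 109 in BAT sham. Nr3c2 reached its highest level in lymphatic endothelial-like nuclei, at 2070 CPM in BAT surgery (252 UMIs in 52 nuclei) and 524 in BeAT surgery (148 UMIs in 76 nuclei), and the sham libraries held too few such nuclei to compare. Nr3c2 was at least 2-fold higher after surgery in T or NK-like nuclei of the brown-labelled pair, at 335 in BAT surgery and 116 in BAT sham (2.89, 1.98 to 4.25). The expected leak was 189 in BAT surgery and 143 in BAT sham. In dendritic-like nuclei of the beige-labelled pair Nr3c2 was at 90.8 in BeAT surgery and 39.3 in BeAT sham (2.31, 1.09 to 5.85), the sham value resting on 7 UMIs. Klf9 and Tsc22d3 were at least 2-fold apart in 0 of the classes with enough UMIs. Tsc22d3 was higher after surgery in adipocyte-like and macrophage-like nuclei under both labels, with macrophage-like ratios of 1.36 (1.19 to 1.54) and 1.70 (1.34 to 2.15). Leaked RNA was expected to give 92.9 of the 112 CPM in macrophage-like nuclei of BAT sham and 78.3 of the 89.8 in BeAT sham. In every other class compared the ratio of Tsc22d3 was below 1, from 0.423 to 0.784 in the brown-labelled and 0.524 to 0.918 in the beige-labelled pair. The lowest rested on 4 UMIs in BAT surgery.

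**Figure D4:**
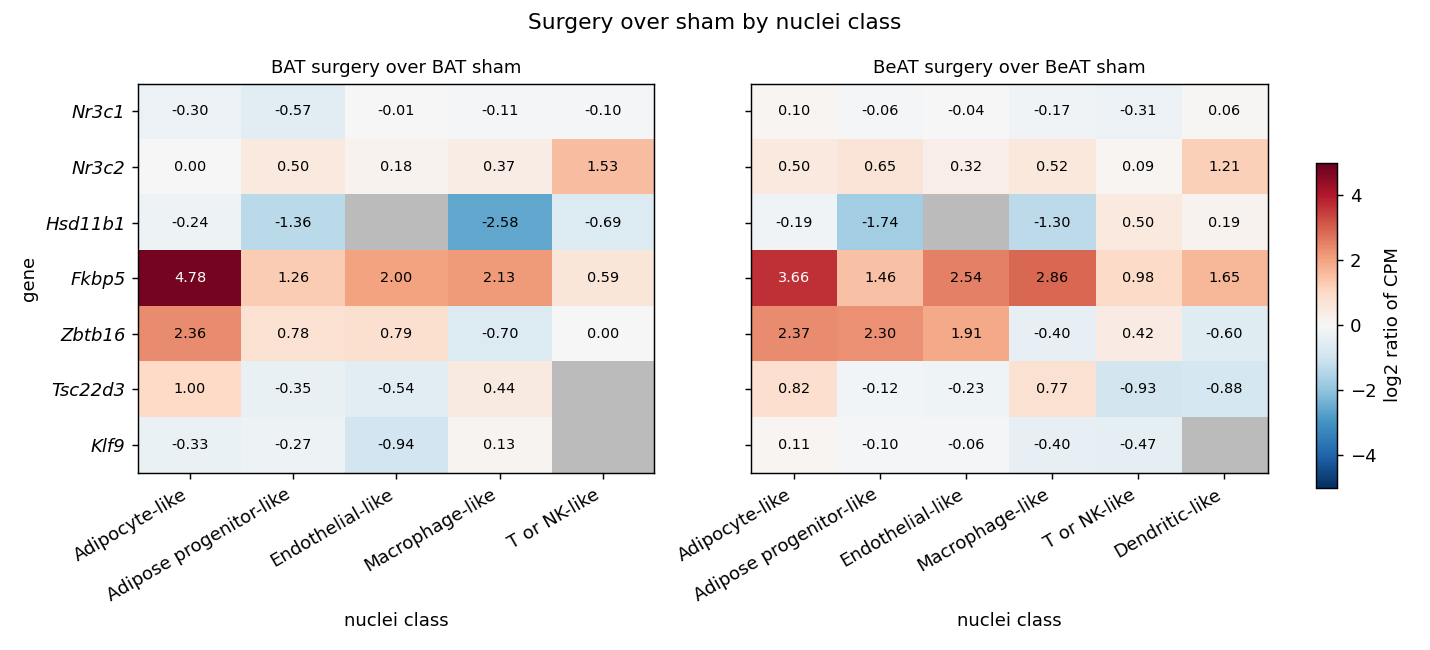
Cells give the log2 ratio of CPM, surgery over sham, for each gene and class, on the left for the brown-labelled and on the right for the beige-labelled pair. Grey cells held under 50 UMIs in both libraries together. Fkbp5 is positive in every class shown, Zbtb16 is positive in adipocyte-like, progenitor-like and endothelial-like and negative in macrophage-like nuclei, and Hsd11b1 is negative in adipocyte-like, progenitor-like and macrophage-like nuclei.

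Read against all genes, the counts of genes at least 2-fold apart in either direction were as follows. In the brown-labelled pair they were 2 of 7 in progenitor-like nuclei beside 18.5% of all genes, 1 of 6 in endothelial-like nuclei beside 13.7%, and 2 of 7 in macrophage-like nuclei beside 15.2%. They were 1 of 5 in T or NK-like nuclei beside 7.82% and 2 of 6 in epithelial-like nuclei beside 25.5%, where Zbtb16 was lower, at 56.6 in BAT surgery and 190 in BAT sham. The epithelial-like nuclei of these libraries were different epithelia, as given above. In the beige-labelled pair they were 3 of 7 in progenitor-like nuclei beside 22.5%, 2 of 6 in endothelial-like nuclei beside 18.7%, and 2 of 7 in macrophage-like nuclei beside 22.6%. They were 2 of 6 in dendritic-like nuclei beside 24.1% and 0 of 7 in T or NK-like nuclei beside 17%. With so few genes, most of these counts differ from the share over all genes by about 1 gene.

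Ordered over the 33 combinations of class and library with at least 50 nuclei, Fkbp5 was highest in adipocyte-like nuclei of BAT surgery, followed by epithelial-like nuclei of BAT surgery (948) and lymphatic endothelial-like nuclei of BeAT surgery (920, 812 to 1039), whose intervals overlapped. Adipocyte-like nuclei of BAT sham and BeAT sham came 28th and 30th, and the interval of BAT sham overlapped those of its neighbours. Zbtb16 and Tsc22d3 were both highest in adipocyte-like nuclei of the surgery libraries, and Klf9 was highest in lymphatic endothelial-like nuclei of BAT surgery (312, 221 to 428), with progenitor-like nuclei of all 4 libraries within that interval.

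Other genes of the pathway were followed as lists in adipocyte-like nuclei. Of 24 genes known to be induced by glucocorticoids, 8 were at least 2-fold higher, beside 5.34% of all genes, and 5 at least 2-fold lower, beside 12%, in the brown-labelled pair, with a median log2 ratio of 0.20 beside -0.07 over all genes. In the beige-labelled pair 5 were higher, beside 4.4%, and 0 lower, beside 15.2%, of the 22 with enough UMIs, with a median of 0.22 beside -0.09. With the span trend taken off the medians were 0.49 and 0.84. The list held genes past 2-fold in both directions in the brown-labelled pair. The genes past 2-fold under both labels were 2, both higher. Pik3r1, which encodes the regulatory subunit of the insulin-activated lipid kinase, was at 3355 CPM in BAT surgery and 523 in BAT sham, and at 3013 in BeAT surgery and 473 in BeAT sham, ratios of 6.42 (6.26 to 6.58) and 6.38 (6.21 to 6.55). Cdkn1a, which encodes the cell cycle inhibitor p21, was low throughout, with 30 UMIs in BAT surgery, 29 in BAT sham, 28 in BeAT surgery and 23 in BeAT sham, ratios of 7.24 (4.20 to 12.5) and 5.82 (3.23 to 10.6). Lpin1, a phosphatidate phosphatase of triglyceride synthesis, was 2.28-fold higher in the brown-labelled and 1.92-fold in the beige-labelled pair. Txnip, an inhibitor of glucose uptake, was lower with ratios of 0.325 and 0.654, and Glul, the glutamine synthetase gene, had ratios of 0.672 and 0.973. The other genes past 2-fold in the beige-labelled pair, named after their values were seen, were higher after surgery. They were Pdk4, which encodes a kinase that inhibits pyruvate dehydrogenase (4.32), the kinase gene Sgk1 (2.93) and the transcription factor gene Cebpd (2.90). None of them was past 2-fold higher in the brown-labelled pair, where 5 genes of the list were past 2-fold lower.

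**Figure D5:**
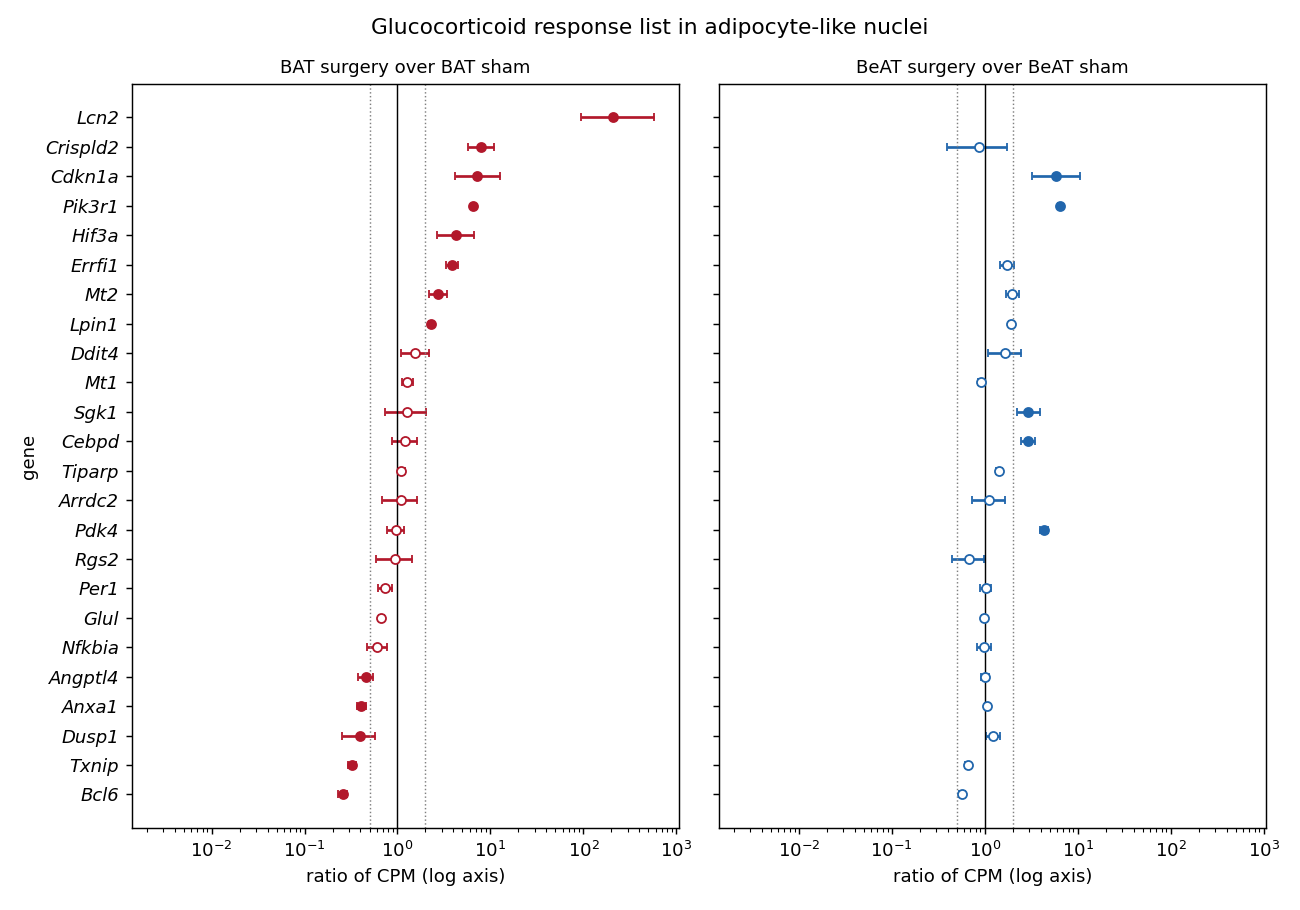
Points give the surgery over sham ratio of CPM in adipocyte-like nuclei on a log axis for 24 glucocorticoid-induced genes, with the 95% counting interval, on the left for the brown-labelled and on the right for the beige-labelled pair. Filled points are at least 2-fold apart with an interval that excludes 1, dotted lines mark 2-fold, and genes under 50 UMIs have no point. Pik3r1 and Cdkn1a are filled on the right of both panels. Lcn2, the top point of the left panel, had 179 UMIs in BAT surgery and 6 in BAT sham.

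The receptor's chaperones and coregulators were followed in the same way. Of 10 chaperone genes read, 0 were higher and 1 lower in the brown-labelled pair (median log2 ratio -0.05), and 2 were higher and 0 lower in the beige-labelled pair (-0.13), beside the shares of all genes given above for these pairs. With the span trend taken off the medians were 0.09 and 0.23. The genes past 2-fold, named after their values were seen, were the HSP40 gene Dnajb1, with ratios of 0.489 and 2.27, and Hsp90aa1, the inducible HSP90 gene, at 2.45 in the beige-labelled pair. Hsp90ab1, which encodes the constitutive HSP90 that holds the receptor in its hormone-binding state, had ratios of 0.943 and 0.811. Hspa8, the constitutive HSP70 gene, had ratios of 0.846 and 0.947, and Ptges3, which encodes the p23 cochaperone, 0.992 and 0.881. Of 9 coregulator genes, 0 were past 2-fold in either pair, with median log2 ratios of 0.36 and 0.40 that became 0.17 and 0.03 with the span trend taken off. The corepressor genes Nrip1 and Ncor1 had ratios of 1.37 and 0.931 in the brown-labelled and 1.02 and 1.15 in the beige-labelled pair, and the coactivator gene Ncoa1 1.25 and 1.38. Of 7 genes for steroid supply and other steroid receptors, 4 had enough UMIs, with 0 higher and 1 lower in the brown-labelled pair (median -0.23) and 0 in either direction in the beige-labelled pair (-0.06). The medians were -0.39 and -0.23 with the span trend off. H6pd, which supplies the cofactor for the enzyme of Hsd11b1, had ratios of 1.21 and 1.04, and the estrogen receptor gene Esr1 had ratios of 0.599 and 0.880.

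The 5 genes whose level over the 33 combinations of class and library was most like that of Fkbp5, by Pearson's r of log2(CPM + 1) among 10708 genes, were Mosmo (0.745), Zfand3 (0.736), Npepps (0.684), Prrg1 (0.663) and B4galt1 (0.656). These points share libraries, depth and free RNA, so r is a description only. Of the genes on the list, Zbtb16 had an r of 0.422 and Nr3c2 of 0.402, while Klf9 (0.161), Nr3c1 (0.010), Tsc22d3 (-0.019) and Hsd11b1 (-0.097) were near 0.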

How the data were processed

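Droplet RNA libraries of single nuclei, as labelled, were analysed from the UMI count tables the authors deposited, although the labels' protocol speaks of digested tissue and viable cells. The feature tables deposited by the authors pair symbols and IDs. Per the submitters' processing notes, the build was mm10, and Seurat 4.4.0 and 4 were used. No aligner was named (not given in the sources used here).

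Barcodes under 500 UMIs or 300 genes, or with 10% or more mitochondrial UMIs, were left out (4 in BAT surgery, 29 in BAT sham, 3 in BeAT surgery and 34 in BeAT sham). Scrublet (scanpy 1.11.5) then removed 783 (7.88%), 625 (6.00%), 621 (10.4%) and 623 (6.00%) doublets in that order, the highest 6% in the sham libraries, where its automatic threshold marked under 0.5% or over 20%. Median depths of kept nuclei were 5173, 3970, 2654 and 3049 UMIs, and pairs of libraries shared 36 to 73 barcodes. All libraries were clustered together (2000 variable genes, 30 components, 15 neighbours, Leiden resolution 1) without batch correction. Clusters were named from 18 marker lists, by at least 3 markers in at least 5% of nuclei with a mean fold of at least 4. Clusters stayed unnamed where leading genes or depth (under 33% of the median) went against the name, or another class reached 60% of the score.

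UMIs were summed per class and library (at least 50 nuclei), with exact Poisson intervals for levels and exact binomial intervals for ratios at 95%, which cover counting error only. Expected leak is the largest share of a source class's own markers seen in another class times the gene's level in the source. Sources were epithelial-like nuclei in BAT surgery, B cell-like and T or NK-like nuclei in BeAT surgery, and adipocyte-like nuclei everywhere. To take leak off, its UMIs were removed from both the gene and the class total. The call rule was tested on simulated data.

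The 7 genes and the lists were chosen with earlier results of these data known. Of the lists, genes past 2-fold under both labels were named, then 3 others per list with most UMIs, of which 1 gene is not reported here. Lcn2 was named after its values were seen. Alternatives were another scaling, thinning, doublets kept, resolution 0.5, mitochondrial share under 2%, the other sham library, gene span, shared clusters, leak and no minimum of UMIs. Promoter sequences are from RefSeq.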

Additional observations from a re-analysis of the deposited data

Results flagged for a closer look

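The glucocorticoid receptor gene Nr3c1 went in opposite directions under the labels in adipocyte-like nuclei, with a ratio of 0.811 (0.777 to 0.846) for BAT surgery over BAT sham and 1.07 (1.03 to 1.11) for BeAT surgery over BeAT sham. The opposition was absent with the span trend taken off, where the beige-labelled ratio was 0.857, and against BAT sham, where it was 0.933. It was also absent with the largest expected leak taken off the gene and the class total, where the brown-labelled ratio was 1.10. Taken off the gene alone, that leak left Nr3c1 at 621 CPM in BAT surgery and 806 in BAT sham, still lower after surgery. Hsd11b1 went in opposite directions in T or NK-like nuclei, with ratios of 0.619 (0.461 to 0.824) and 1.42 (1.18 to 1.72). This class made up 29.5% of BeAT surgery and 1.93% of BeAT sham, so the nuclei compared need not be of the same makeup. With 1 library per group, the difference between the labels was not tested.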

How the results depend on the processing

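No paired analysis was possible because the values come from no test, each group having 1 library. Fkbp5 in adipocyte-like nuclei stayed over 9-fold higher after surgery under every alternative run. For BAT surgery over BAT sham (27.6) it was 32.2 after thinning, 24.2 with the span trend taken off, 36.7 against BeAT sham, 31.9 within the shared cluster led by Nnat, and 30.7 with the expected leak taken off. For BeAT surgery over BeAT sham (12.6) it was 10.1 with the span trend off, 9.50 against BAT sham and 11.5 within the shared cluster led by Npr3. Past 2-fold in the brown-labelled pair were 4 genes in place of 2 within the Nnat cluster, where Tsc22d3 and, lower, Nr3c1 were added from 27 nuclei of BAT surgery. They were 3 against BeAT sham and 3 with the leak off, by Tsc22d3, also when the leak was set by the lowest marker, an alternative chosen after seeing the data. Over all genes (697 higher and 1561 lower), thinning gave 430 and 797, the Nnat cluster 479 and 195, leak off 731 and 3635 (561 and 2401 by the lowest marker) and no minimum 1357 and 1691. In the beige-labelled pair (550 and 1900), thinning gave 377 and 961, the span trend off 679 and 793, the Npr3 cluster 387 and 1219 and no minimum 1130 and 2062. Of 19 other ratios past 2-fold, 124 of 135 recomputed values stayed past it, and of the 11 that did not, 5 were of Hsd11b1 in macrophage-like nuclei (0.314 to 0.602), 1 of Hsd11b1 in progenitor-like nuclei (0.554), 4 of dendritic-like nuclei (1.96 to 3.92) and 1 of Fkbp5 in endothelial-like nuclei (7.95). The last (3.57 to 19.4) and the lowest of Hsd11b1 (0.0924 to 0.854) were lost to the minimum of 50 UMIs after thinning, at a ratio still past 2-fold. Directions that turned in adipocyte-like nuclei are given above for Nr3c1 and Hsd11b1. Nr3c2 in the brown-labelled pair, near 1, was 0.879 (0.824 to 0.938) with the span trend off, and Klf9 in the beige-labelled pair 0.782 (0.581 to 1.03) after thinning. The Nr3c2 ratio of dendritic-like nuclei after thinning had 0 UMIs in BeAT sham and no value.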
